A study of Mus musculus with 12 samples.

Results

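Genes that attach ubiquitin to proteins were followed through the terminal maturation of mouse erythroblasts. The 9 genes were chosen by their symbols, with earlier results of these data known. They were Ubb, Ube2h, Ube2o, Ube2l6, Trim58, Trim10, Cul4a, Fbxo7 and Rnf123, out of 29838 genes in the table. All 9 passed the filter on low values. RNA was sequenced from nucleated red cell precursors that were sorted from the bone marrow of wild-type (WT) C57BL/6 male mice of 8 weeks after CD45+ cells had been depleted. The 4 groups were proerythroblasts (Pro), basophilic (Baso), polychromatic (Poly) and orthochromatic (Ortho) erythroblasts, with 3 libraries each. Pro cells were sorted as CD44 high and Ter119 low, and the other stages from Ter119+ cells by falling CD44 staining and cell size. No group was treated or carried a mutation. The stage of Ortho replicates 2 and 3 was taken from their titles, since their cell type is labelled only as erythroblasts. The labels do not say whether the libraries of a stage came from separate mice, so the p-values below measure only the spread between these libraries, which may be technical.

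Ubiquitin is passed from an activating enzyme (E1) to a conjugating enzyme (E2), and a ligase (E3) then brings the loaded E2 to the protein that is to be marked. Chains of ubiquitin send proteins to the proteasome. Red cell precursors remodel their proteome in this way as they mature and lose their nucleus, organelles and ribosomes. Ubb encodes ubiquitin itself, Ube2h, Ube2o and Ube2l6 encode E2 enzymes, and Trim58, Trim10, Cul4a, Fbxo7 and Rnf123 encode ligases or ligase subunits.

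Values are FPKM, fragments scaled to the length of the transcript and to the mapped fragments of the library, so levels of different genes can be compared per length. Differences between stages are log2 fold changes on the log2(FPKM + 1) scale, fitted with limma over all 12994 genes that had at least 1 FPKM in at least 3 libraries, with all 12 libraries in one model. This scale understates the change of low genes. A gene was called higher or lower when its Benjamini-Hochberg adjusted p was under 0.05 and its log2 fold change was at least 1 in size.

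The libraries differed in ways that touch every gene. FPKM summed to between 505624 and 691033 per library, and hemoglobin genes took 6.98 to 10.6% of it in Pro, 33.2 to 37.6% in Baso and Poly and 47.2 to 52.6% in Ortho. The erythroid genes Alas2 and Slc4a1 had Ortho means of 2221 and 1672 FPKM. Kit, a gene of early precursors, had a mean of 17.8 FPKM in Pro and 14.5 in Ortho. Of 9 erythroid stage markers, 6 were called higher in Ortho than in Pro, beside 6.33% of all tested genes. None was called lower, Kit and the early gene Gata2 included, beside 23.8% of all tested genes. In the FPKM values that the study lists, Gata2 was higher in every Ortho library than in every Pro library. The summed FPKM of 8 neutrophil markers, all of them detected, was 6664 to 8426 at Pro, 11588 to 13649 at Baso, 14950 to 17743 at Poly and 13267 to 16514 at Ortho. The sum of 7 B cell markers was 59.4 to 103.9 FPKM in Pro and 150 to 193 in Ortho, and that of 7 macrophage markers 29.1 to 35.0 and 62.1 to 73.7 FPKM. The sum of 6 T and NK cell markers was 21.0 to 30.2 FPKM in Pro and 34.3 to 41.3 in Ortho, with 1 of them, Cd3e, at 0 in all libraries of both stages, and that of 6 megakaryocyte and platelet markers was 70.3 to 128.9 and 38.3 to 47.2 FPKM. Of these lists, 4 of the 7 macrophage and 3 of the 6 T and NK cell markers passed the filter on low values. Against Pro, 3 of 8 neutrophil, 5 of 7 B cell and 2 of 4 tested macrophage markers were called higher in Ortho. No T and NK cell marker was called, and 4 of 6 megakaryocyte and platelet markers were called lower. Over all tested genes, 6.33% were called higher and 23.8% lower. The study's gate kept cells negative for CD45, CD11b and GR1. The part of other cells in the results below was not tested. In bulk samples, fewer cells of a type and less RNA per cell cannot be told apart.

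The promoter sequences of Ube2h, Trim58 and Trim10 are shown, which with Ube2o had the largest increases from Pro to Ortho among the 9 genes. They are the 250 bases before the annotated RefSeq start on GRCm38.p6 (mm10), printed 5′ to 3′ on the gene's strand. Capitals mark a GATA word, that is the letters GATA preceded by A or T and followed by A or G, on either strand. Ube2h has 2 annotated starts, an upstream one (window chr6:30304540-30304789, minus strand) and an internal one (chr6:30243804-30244053, minus strand). The windows of Trim58 (chr11:58640215-58640464) and Trim10 (chr17:36869324-36869573) are on the plus strand.
Ube2h upstream start: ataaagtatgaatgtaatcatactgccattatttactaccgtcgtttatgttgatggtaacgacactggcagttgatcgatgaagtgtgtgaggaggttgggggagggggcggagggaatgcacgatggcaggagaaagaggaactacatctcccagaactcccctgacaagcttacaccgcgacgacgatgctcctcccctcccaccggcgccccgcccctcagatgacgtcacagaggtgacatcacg
Ube2h internal start: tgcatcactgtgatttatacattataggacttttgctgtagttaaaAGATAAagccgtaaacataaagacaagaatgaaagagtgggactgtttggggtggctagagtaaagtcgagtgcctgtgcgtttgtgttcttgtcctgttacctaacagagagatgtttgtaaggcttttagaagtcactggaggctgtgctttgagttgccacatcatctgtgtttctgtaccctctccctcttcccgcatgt
Trim58: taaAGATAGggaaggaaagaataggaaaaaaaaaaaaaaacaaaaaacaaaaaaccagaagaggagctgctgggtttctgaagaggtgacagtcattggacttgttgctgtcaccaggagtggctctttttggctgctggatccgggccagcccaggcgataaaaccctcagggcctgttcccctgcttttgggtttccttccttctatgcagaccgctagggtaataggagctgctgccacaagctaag
Trim10: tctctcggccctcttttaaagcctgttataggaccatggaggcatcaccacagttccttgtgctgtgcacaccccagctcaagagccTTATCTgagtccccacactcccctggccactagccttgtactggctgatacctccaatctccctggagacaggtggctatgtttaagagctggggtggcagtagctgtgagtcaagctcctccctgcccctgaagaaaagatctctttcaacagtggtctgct
The words lie at positions -204 before the internal start of Ube2h, -247 in Trim58 and -163 in Trim10, counted to their first base as printed. The table held 11 windows for 8 of the 9 genes, and 3 of them held such a word, beside 26.5% of all 32851 windows in the table. All 3 are among the printed windows. The windows of Ubb and Ube2l6, which rose as well, held no such word. Ube2o had no entry. A second word, CCNCNCCC, of the kind that Klf1 and related factors bind, occurred in 5 of the 11 windows, both of Ube2h among them but not those of Trim58 and Trim10, and in 45.9% of all windows. These matches are descriptions of letters only.

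Ortho cells had the highest mean levels of 6 of the 9 genes, and all 6 were called higher in Ortho than in Pro: Ube2h, Ube2o, Trim58, Trim10, Ube2l6 and Ubb. Over all tested genes, 6.33% were called higher in Ortho than in Pro and 23.8% lower, and none of the 9 genes was called lower. Fbxo7 alone reached an unadjusted p under 0.05 in the lower direction. The median log2 fold change was 1.84 over the 9 genes and -0.42 over all tested genes. Ube2h and Ube2o stood at ranks 17 and 19 of 12994 by log2 fold change, Trim58 at 29, Trim10 at 69, Ube2l6 at 156 and Ubb at 289. The other 3 genes had other courses. Rnf123 was highest in Baso and Poly, Fbxo7 was highest in Baso and lowest in Ortho, and the libraries of Cul4a overlapped between all stages. The plot of levels in each library shows these courses.

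**Figure D1:**
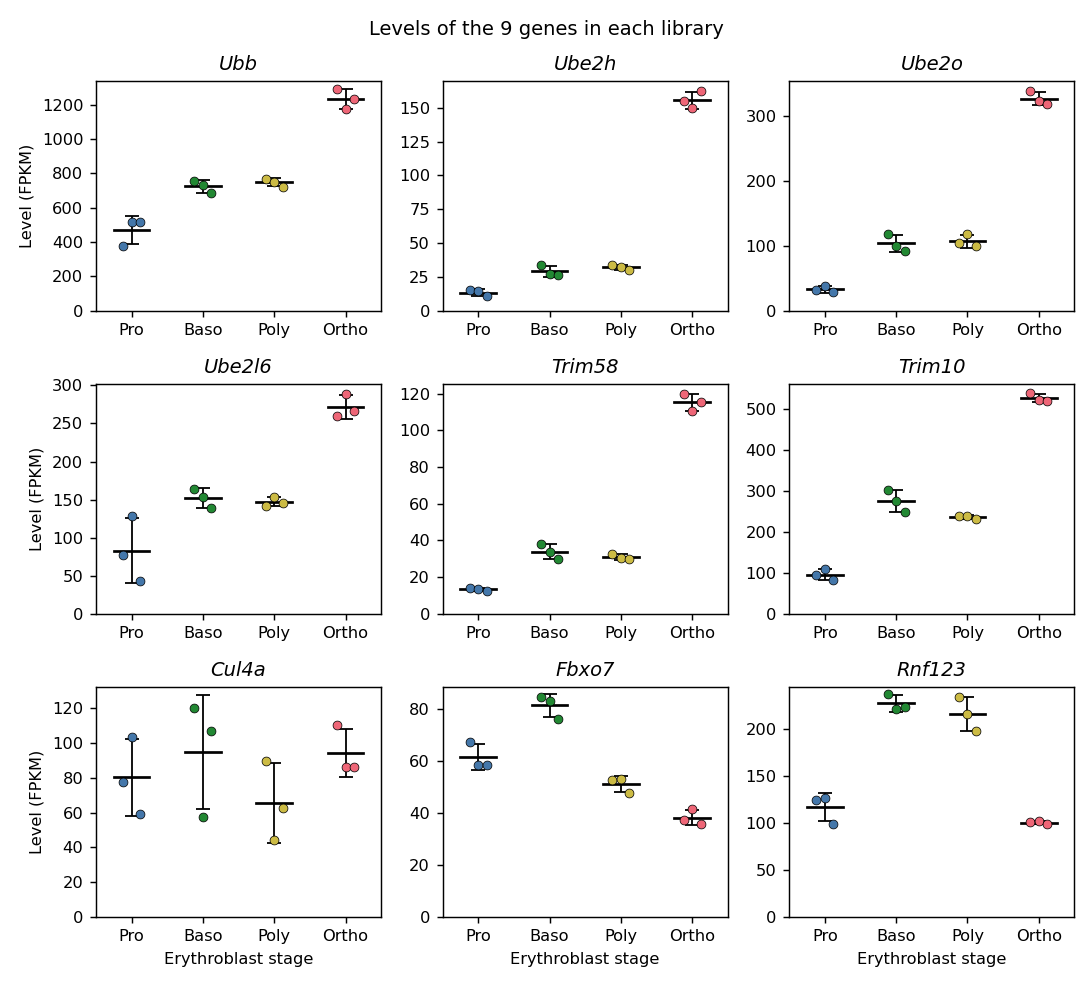
Level of each of the 9 genes in FPKM (vertical axis, from 0) at the 4 stages (horizontal axis); points are libraries, and the black line and bar are the mean and SD of 3 libraries. The Ortho libraries lie above all others for Ubb, Ube2h, Ube2o, Ube2l6, Trim58 and Trim10, and Fbxo7 is lowest there with 35.8 to 41.5 FPKM.

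Ubb, at chr11:62551171-62553213 on the plus strand with 2 exons, is a polyubiquitin gene whose product is cut into single ubiquitin molecules. Its level was 374, 519 and 514 FPKM in the Pro libraries, 755, 733 and 683 in Baso, 768, 751 and 722 in Poly and 1292, 1175 and 1234 in Ortho. The Baso and Poly libraries overlapped, and Pro lay below and Ortho above both. Ubb rose by 1.41 ± 0.11 (SE) on the log2 scale from Pro to Ortho (limma adjusted p = 5.89e-07). The steps from Pro to Baso, 0.64 (limma adjusted p = 0.000635), and from Poly to Ortho, 0.72 (limma adjusted p = 0.000489), passed the p but not the fold limit. Ubb shares 46.2% of its 75-base windows with the processed copies Gm1821 and Gm8797, so its value depends on how shared reads were counted. Gm1821 had 205 ± 26.6 FPKM at Pro and 515 ± 24.5 at Ortho (SD, n = 3) and stood at 41.8 to 43.6% of the Ubb mean in every stage.

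Rps27a, which encodes ubiquitin fused to a ribosomal protein, moved the other way. It fell by 1.09 ± 0.10 on the log2 scale, from a mean of 740 FPKM in Pro to 346 in Ortho (limma adjusted p = 1.77e-06). With hemoglobin genes left out or libraries centred on their median, Rps27a was not called lower, and Ubb was still called higher.

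Of 10 genes for E1 enzymes of ubiquitin and ubiquitin-like proteins, 0 were called higher in Ortho than in Pro and 3 lower, with a median log2 fold change of -0.54. The 3 were Nae1 (-1.48), a subunit of the NEDD8 E1, and Uba2 (-1.23) and Sae1 (-1.02), which form the SUMO E1. With hemoglobin genes left out, 1 gene was called higher and 1 lower.

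Ube2h, at chr6:30211289-30304539 on the minus strand with 7 exons in its longest transcript, encodes the E2 that serves the CTLH ligase complex. Its level was 15.0, 14.2 and 10.5 FPKM in Pro, 33.8, 27.4 and 26.0 in Baso, 33.5, 32.6 and 29.9 in Poly and 155, 150 and 162 in Ortho. All Ortho libraries stood far above the rest, and Baso and Poly overlapped. Ube2h rose by 3.47 ± 0.13 (SE) from Pro to Ortho (limma adjusted p = 2.92e-09), of which 2.25 ± 0.13 lay between Poly and Ortho (limma adjusted p = 1.56e-07). In the comparison of Ortho with Poly it stood at rank 10 of 12994 genes by log2 fold change. The smaller rise from Pro to Baso, 1.09 ± 0.13 (limma adjusted p = 2.98e-05), dropped below the fold limit without Pro replicate 3 (0.94) or without Baso replicate 1 (0.98). Ube2h shares 6.95% of its 75-base windows with the copy Gm2058, which had means of at most 0.119 FPKM.

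The CTLH complex, named for a domain of its subunits, is the ligase that Maea and Rmnd5a give their RING domains to. Of its 11 tested subunits and partners, 3 were called higher in Ortho than in Pro and 2 lower. Ypel5 (1.76), Ranbp10 (1.75) and Wdr26 (1.61) rose, with means of 15.6 and 55.3, 64.8 and 219, and 56.4 and 174 FPKM in Pro and Ortho. Gid8 fell by 1.26 and Gid4, a substrate receptor, fell by 1.08 on the log2 scale, and neither was called lower with hemoglobin genes left out. Maea had a mean of 41.6 FPKM in Pro and 29.6 in Ortho, Rmnd5a 21.3 and 32.1, Rmnd5b 18.3 and 13.4, Ranbp9 19.3 and 20.1, Armc8 8.38 and 6.85, and Mkln1 11.9 and 6.59. None of these 6 reached the fold limit. Ranbp10 and Ypel5 had Baso means of 165 and 39.1 FPKM, so most of their difference lay before Baso. Wdr26 differed by 0.78 ± 0.09 (SE) from Pro to Baso and by 0.92 ± 0.09 from Poly to Ortho, steps of similar size.

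Ube2o, at chr11:116537740-116581447 on the minus strand with 18 exons, encodes a large enzyme that acts as E2 and E3 at once and marks ribosomal proteins and unpaired alpha-globin in reticulocytes. Its level was 32.3, 37.9 and 28.2 FPKM in Pro, 119, 99.7 and 92.5 in Baso, 104, 118 and 99.1 in Poly and 339, 323 and 320 in Ortho. The Pro libraries were lowest, Baso and Poly overlapped, and Ortho was highest. Ube2o rose by 3.29 ± 0.12 (SE) from Pro to Ortho (limma adjusted p = 2.69e-09), in 2 steps on the log2 scale. The first was 1.63 ± 0.12 from Pro to Baso (limma adjusted p = 2.01e-06) and the second 1.61 ± 0.12 from Poly to Ortho (limma adjusted p = 1.01e-06).

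Ube2l6, at chr2:84798828-84810335 on the plus strand with 4 exons, encodes the E2 for ISG15, a ubiquitin-like protein that interferon induces. Its level was 77.7, 128 and 42.6 FPKM in Pro, 164, 154 and 139 in Baso, 142, 154 and 145 in Poly and 259, 289 and 267 in Ortho. The Pro libraries were spread over a 3-fold range, and the Ortho libraries lay above all others. Ube2l6 rose by 1.84 ± 0.28 (SE) from Pro to Ortho (limma adjusted p = 9.15e-05), with a range of 1.44 to 2.22 when single libraries were left out. The rise from Pro to Baso, 1.004 ± 0.279 (limma adjusted p = 0.00934), stood at the fold limit. It was 0.60 without Pro replicate 3, 0.95 without Baso replicate 1 and 0.996, just under the limit, without Baso replicate 2.

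Of the 5 genes of the ISG15 pathway, 2 were called higher in Ortho than in Pro, Ube2l6 and Isg15. Isg15 itself rose by 3.09 ± 0.33 from Pro to Ortho (limma adjusted p = 4.99e-06), with means of 29.0, 144, 131 and 235 FPKM from Pro to Ortho. Uba7, the E1 for ISG15, had means of 35.5, 81.0, 77.5 and 61.6 FPKM and did not reach the fold limit at Ortho (0.80), although it did so with hemoglobin genes left out, where 3 of the 5 were called. Herc6, the ISG15 ligase of the mouse, had means of 8.84 and 12.8 FPKM in Pro and Ortho, and Usp18, which removes ISG15, had 8.15 and 11.5. Among 15 interferon-stimulated genes, 6 were called higher in Ortho than in Pro and 1 lower. Rsad2 (3.99) and Ifit1 (2.88) rose with Isg15, and Ifit2 fell by 1.18. The sum of the 15 genes was 135 to 206 FPKM in Pro and 654 to 944 in Ortho, and replicate 1 had the highest sum in each stage. Ube2l6 was highest in replicate 1 only in Baso.

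Ube2h, Ube2o and Ube2l6 changed places within their family. Of 35 E2 genes tested, 6 were called higher in Ortho than in Pro and 9 lower. Among the other 32 E2 genes, 3 rose, namely Ube2b (2.27), a RAD6-type E2 that ubiquitinates histones, Ube2r2 (1.61) and Ube2f (1.04). Cdc34 fell by 1.70, Ube2t, an E2 of DNA repair, fell by 1.31 and Ube2k fell by 1.29 on the log2 scale. The count of E2 genes called lower depended on the scaling, with 1 when hemoglobin genes were left out and 16 when libraries were rescaled to the same sum, whereas the count called higher was 7 and 5. The plot of the E2 family shows each gene.

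**Figure D2:**
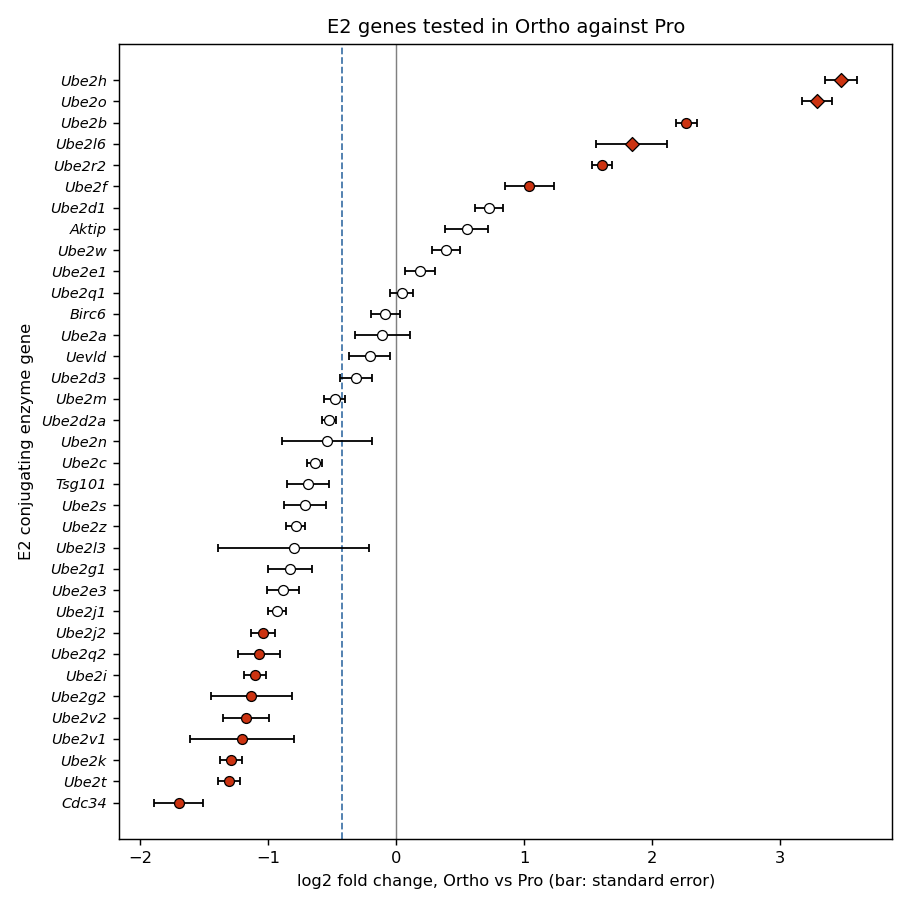
Log2 fold change of Ortho against Pro (horizontal axis) for the 35 E2 genes tested, 1 a row; diamonds are Ube2h, Ube2o and Ube2l6, circles the other E2 genes, red marks a call, and bars are standard errors. The grey line is 0 and the dashed line is the median of all tested genes at -0.42; Ube2h (3.47) and Ube2o (3.29) lie at the top.

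The summed FPKM of 38 E2 genes was 1549 ± 92.9 at Pro, 1937 ± 25.4 at Baso, 1861 ± 19.1 at Poly and 1876 ± 44.9 at Ortho (SD, n = 3). Ube2h, Ube2o and Ube2l6 together held 8.30 ± 2.99% of this sum at Pro, 14.7 ± 1.58% at Baso, 15.4 ± 0.725% at Poly and 40.3 ± 1.31% at Ortho (SD, n = 3). The share of Ortho lay above that of every other library. By mean level, Ube2o was number 15 of the 38 in Pro and number 1 in Ortho, Ube2h went from 28 to 4, and Ube2l6 from 5 to 2. The log2 ratio of Ube2l6 to its relative Ube2l3, an E2 for ubiquitin, was 1.39 ± 0.607 at Pro and 4.08 ± 0.789 at Ortho (SD, n = 3), with a wide spread within Baso of 1.64 to 3.83.

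**Figure D3:**
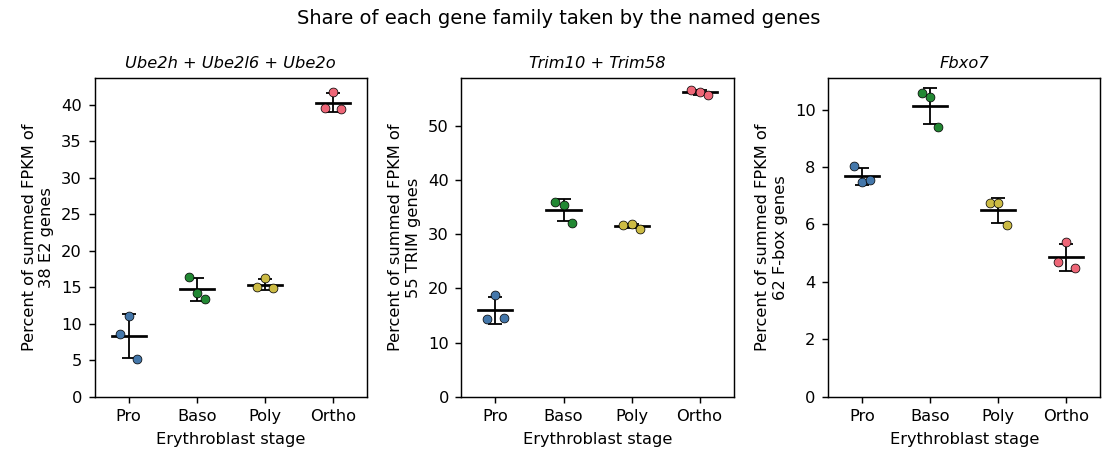
Share of the summed FPKM of a gene family (vertical axis, percent, from 0) held by Ube2h, Ube2l6 and Ube2o, by Trim10 and Trim58, and by Fbxo7 at the 4 stages; points are libraries, and the line and bar are the mean and SD of 3 libraries. In Ortho, the 3 E2 genes reach 40.3% and the 2 TRIM genes 56.2%, whereas Fbxo7 is at 4.86%.

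Trim58, at chr11:58640465-58652404 on the plus strand with 6 exons, encodes a RING ligase of red cell precursors that acts on dynein, a motor on microtubules. Its level was 13.9, 13.7 and 12.5 FPKM in Pro, 37.8, 33.5 and 29.8 in Baso, 32.6, 30.2 and 29.8 in Poly and 120, 110 and 115 in Ortho. Every Ortho library lay above every earlier one, and Baso and Poly overlapped. Trim58 rose by 3.02 ± 0.09 (SE) from Pro to Ortho (limma adjusted p = 1.16e-09), by 1.27 ± 0.09 from Pro to Baso (limma adjusted p = 1.69e-06) and by 1.87 ± 0.09 from Poly to Ortho (limma adjusted p = 4.54e-08). Of the dynein subunits, Dync1h1 had means of 23.3 and 15.9 FPKM in Pro and Ortho, Dync1i2 32.6 and 21.8, Dync1li1 20.4 and 15.3, and Dync1li2 17.5 and 15.6. None of these transcripts reached the fold limit.

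Trim10, at chr17:36869574-36877833 on the plus strand with 7 exons, encodes a related ligase of erythroid cells. Its level was 94.7, 109.4 and 81.9 FPKM in Pro, 301, 276 and 248 in Baso, 239, 239 and 231 in Poly and 538, 522 and 520 in Ortho. Poly lay below Baso in every library, but by less than the test required (-0.21, limma adjusted p = 0.188). Trim10 rose by 2.46 ± 0.10 (SE) from Pro to Ortho (limma adjusted p = 5.44e-09), by 1.52 ± 0.10 from Pro to Baso (limma adjusted p = 1.64e-06) and by 1.15 ± 0.10 from Poly to Ortho (limma adjusted p = 4.35e-06). The last step was 0.96 when all libraries were rescaled to the same sum.

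Of 38 TRIM genes tested, 4 were called higher in Ortho than in Pro and 4 lower. Besides Trim58 and Trim10, Trim56 (1.77) and Trim30a rose, and Trim2 fell by 3.08, Pml by 1.71 and Trim27 by 1.45 on the log2 scale. The median of the list was 0.22, above the median of all genes of -0.42, and 13 TRIM genes were called higher with hemoglobin genes left out. Trim10 and Trim58 together held 15.9 ± 2.51% of the summed FPKM of 55 TRIM genes at Pro, 34.5 ± 2.07% at Baso, 31.6 ± 0.432% at Poly and 56.2 ± 0.408% at Ortho (SD, n = 3). By mean level Trim10 was number 2 of the 55 in Pro and number 1 from Baso on, and Trim58 went from 15 to 2.

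Cul4a, at chr8:13105621-13147940 on the plus strand with 20 exons, encodes the scaffold of a large class of ligases in which Ddb1 holds the substrate receptors. Its level was 77.4, 103.7 and 59.4 FPKM in Pro, 120, 57.5 and 107 in Baso, 89.8, 44.0 and 62.5 in Poly and 110, 86.0 and 86.3 in Ortho. The libraries of all 4 stages overlapped. The log2 fold change of Ortho against Pro was 0.26 with a 95% interval of -0.42 to 0.93 (limma adjusted p = 0.459). No difference was detected, and the interval covers both directions. In each of the 3 replicate numbers Cul4a was lower in Poly than in Baso and higher in Ortho than in Poly. With replicate numbers blocked over Baso, Poly and Ortho, these differences were -0.52 (limma adjusted p = 0.0569) and 0.57 (limma adjusted p = 0.0323), beside adjusted p of 0.288 and 0.224 without the block in limma. None of the 5 comparisons of Cul4a reached the fold limit together with the p under any setting tried. The log2 ratio of Cul4a to its relative Cul4b was 2.25 ± 0.373 at Pro and 3.13 ± 0.203 at Ortho (SD, n = 3), with 2.47 to 3.79 at Baso.

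The partners of Cul4a moved in both directions. Ddb1 fell by 1.26 on the log2 scale, from a mean of 146 FPKM in Pro to 60.1 in Ortho (limma adjusted p = 4.33e-08), and of 16 cullins and core partners 0 were called higher and 5 lower. Skp1a and Cul1, which build the ligases of F-box proteins, fell by 1.15 and 1.14. With hemoglobin genes left out, 1 of these genes was called higher and 0 lower. Of 20 genes for receptors and other partners of Cul4a, Dcaf12 (2.45) and Dcaf6 (1.51) rose and 7 fell, led by Dtl (-1.97), a receptor of S phase, Dcaf4 (-1.46) and Dcaf1 (-1.40). The count called lower was 2 with hemoglobin genes left out, 3 with centred libraries and 11 at the same sum, and the count called higher was 2 under all 3. Dcaf12 had means of 34.6, 76.1, 78.5 and 193 FPKM from Pro to Ortho. Its steps were 1.11 ± 0.08 (SE) from Pro to Baso and 1.29 ± 0.08 from Poly to Ortho.

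Fbxo7, at chr10:86021972-86051873 on the plus strand with 9 exons, encodes an F-box protein that binds Cdk6 and the proteasome regulator that Psmf1 encodes. Its level was 67.2, 58.6 and 58.7 FPKM in Pro, 84.7, 83.3 and 76.3 in Baso, 52.7, 53.1 and 47.7 in Poly and 37.3, 41.5 and 35.8 in Ortho. The libraries of the 4 stages did not overlap, with Baso highest, then Pro, Poly and Ortho. No step reached the fold limit. The differences were 0.40 from Pro to Baso (limma adjusted p = 0.00169), -0.66 from Baso to Poly (limma adjusted p = 0.00129), -0.41 from Poly to Ortho (limma adjusted p = 0.00267) and -0.67 from Pro to Ortho (limma adjusted p = 1.83e-05). The last was -1.04, and called, when libraries were rescaled to the same sum, and -0.25 relative to the median of all genes. Fbxo7 shares 5.08% of its exon bases with the antisense gene A230060F14Rik, which had means of 4.24 to 8.98 FPKM. Whether counting used the strand is not given in the sources used here, so reads of the 2 genes may be mixed there.

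Fbxo7 held 7.68 ± 0.300% of the summed FPKM of 62 F-box genes at Pro, 10.1 ± 0.631% at Baso, 6.50 ± 0.434% at Poly and 4.86 ± 0.479% at Ortho (SD, n = 3), whereas the sum itself was 799 and 788 FPKM at Pro and Ortho. It was the second F-box gene by mean level in Pro and the fourth in Ortho. Of 48 F-box genes tested, 4 were called higher in Ortho than in Pro and 10 lower. Fbxo30 (2.94), Fbxo34 (2.88) and Fbxo9 (1.32) rose, the second with an SD of 20.2 around an Ortho mean of 32.1 FPKM. The cell cycle regulators Fbxo5 and Ccnf fell by 1.54 and 1.40, and Fbxo10 fell by 1.46. Of the known partners of Fbxo7, Cdk6 had means of 23.1 and 17.6 FPKM in Pro and Ortho and Psmf1 59.1 and 30.2, and neither reached the fold limit.

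Rnf123, at chr9:108051534-108083346 on the minus strand with 39 exons, encodes the catalytic subunit of the KPC ligase, which marks the cell cycle inhibitor p27 and processes the NF-kappa-B precursor p105. Its level was 125, 126 and 99.3 FPKM in Pro, 237, 221 and 223 in Baso, 234, 216 and 198 in Poly and 100.8, 101.8 and 98.4 in Ortho. Baso and Poly lay above both ends of the course, and the Ortho libraries reached into the range of Pro. Rnf123 fell by 1.09 ± 0.10 (SE) on the log2 scale from Poly to Ortho (limma adjusted p = 4.14e-06), and by 0.95 with hemoglobin genes left out or with libraries centred on their median, where it was not called. The earlier difference between Pro and Baso, 0.96 ± 0.10 (limma adjusted p = 1.01e-05), did not reach the fold limit but did so under those 2 scalings, at 1.28 and 1.26. Ortho and Pro differed by -0.21 (limma adjusted p = 0.066), and by 0.28 with hemoglobin genes left out, so the direction depends on the scaling. Rnf123 shares 13.9% of its exon bases with Gmppb on the opposite strand, which had means of 7.91 to 11.5 FPKM.

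Ubac1, the second subunit of the KPC ligase, had means of 230, 367, 271 and 119 FPKM from Pro to Ortho and fell by 1.18 ± 0.09 from Poly to Ortho (limma adjusted p = 1.1e-06). The log2 ratio of Rnf123 to Ubac1 was -0.98 ± 0.0915 at Pro, -0.69 ± 0.0905 at Baso, -0.33 ± 0.162 at Poly and -0.24 ± 0.0367 at Ortho (SD, n = 3), so Ubac1 stood above Rnf123 in every stage. The transcripts of the targets moved otherwise. Cdkn1b, which encodes p27, rose by 2.46 ± 0.18 from Pro to Ortho (limma adjusted p = 2.94e-07), with means of 17.0, 40.0, 43.5 and 101 FPKM. Nfkb1, which encodes p105, had means of 29.2 and 44.6 FPKM in Pro and Ortho and did not reach the fold limit.

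Across the 9 genes, 5 were called higher in Baso than in Pro (Ube2o, Trim10, Trim58, Ube2h and Ube2l6), where 1.82% of all tested genes were called higher and 8.54% lower. The count was 3 without Pro replicate 3, without Baso replicate 1, with a pseudocount of 5 and with libraries rescaled to the same sum, as Ube2l6 and Ube2h then dropped below the fold limit. In Poly against Pro, 4 genes were called higher (Ube2o, Trim10, Ube2h and Trim58), beside 3.59% of all genes higher and 12.8% lower. Trim58 was under the fold limit there with a pseudocount of 5 (0.96) and at the same sum (0.98), which left 3. None of the 9 was called lower in either comparison by limma. At an unadjusted p under 0.05, 0 of the 9 were lower in Baso, and 1, Fbxo7, was lower in Poly.

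Between Baso and Poly, limma called 0 of the 9 genes in either direction, and at an unadjusted p under 0.05 only Fbxo7 was lower. These stages differed little in all genes, with 0.0616% called higher in Poly and 0.454% lower. In Ortho against Poly, 4 of the 9 were called higher (Ube2h, Trim58, Ube2o and Trim10), beside 1.05% of all genes, and 1, Rnf123, was called lower, beside 4.81% of all genes. The Poly and Ortho libraries of these 5 genes did not overlap, which describes genes already picked by the call and is no separate support. In the same comparison the summed macrophage markers were 47.9 to 55.1 FPKM in Poly and 62.1 to 73.7 in Ortho, without overlap. Of these 7 markers, 4 passed the filter on low values. The sums of neutrophil, B cell and T and NK cell markers overlapped, and the part of these cells was not tested.

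**Figure D4:**
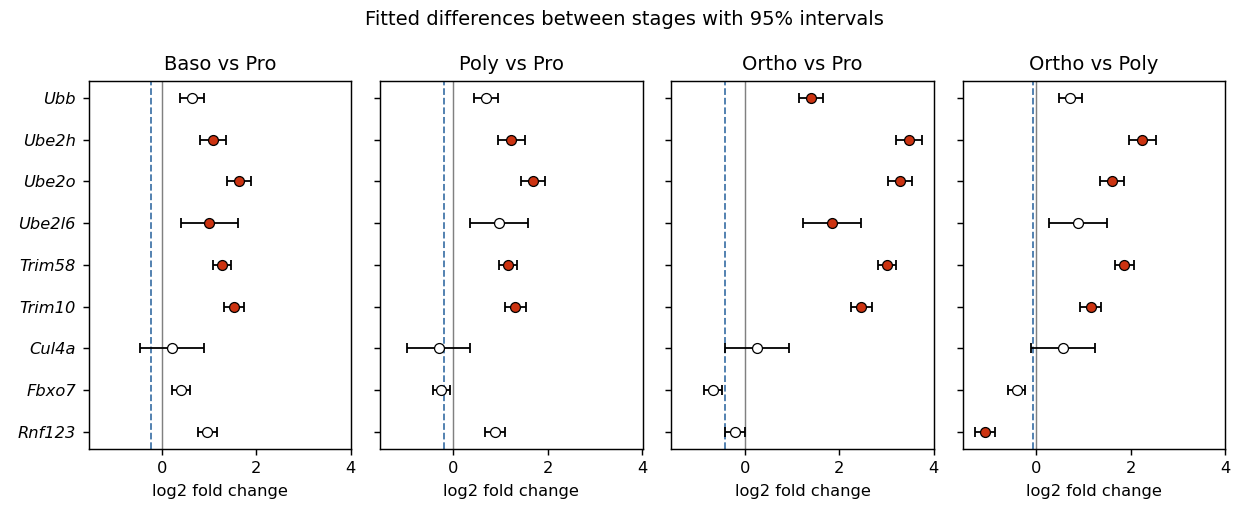
Fitted log2 fold changes (horizontal axis) of the 9 genes in 4 comparisons of stages, with 95% intervals as bars; red points are called and white points are not. The grey line is 0 and the dashed line is the median of all tested genes, which was -0.42 in Ortho against Pro; 6 genes are called there.

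FPKM is relative to all other transcripts of a library, so the rise of hemoglobin transcripts lowers the values of the rest. In Ortho against Pro, the median of all genes was -0.42 as deposited, -0.72 with libraries rescaled to the same sum and -0.03 both with hemoglobin genes left out and with centred libraries. Of all calls in this comparison, 21.0% were higher in Ortho as deposited, against 6.20%, 63.3% and 61.6% under these 3 scalings. The matching shares of higher calls were 17.6%, 8.76%, 53.7% and 57.5% in Baso and 21.9%, 10.5%, 64.1% and 56.9% in Poly, and in Ortho against Poly 18.0%, 9.44%, 28.6% and 31.0%. The share of all tested genes called higher in Ortho than in Pro was 6.33% as deposited and 2.47% at the same sum. Dropping the hemoglobin genes raised this share to 15.3%, and centring the libraries raised it to 16.0%. Ube2h, Ube2o, Trim58, Trim10, Ube2l6 and Ubb were called higher in Ortho than in Pro under all 4 scalings. Relative to the median of all genes as deposited, their differences were 3.90, 3.71, 3.44, 2.89, 2.26 and 1.83.

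Of 65 deubiquitinating enzyme genes, whose products remove ubiquitin, 3 were called higher in Ortho than in Pro and 12 lower. Otud5 (1.22), Otub2 (1.04) and Stambpl1 (1.02) rose, and Josd2 and Josd1 fell by 2.40 and 1.91. Usp50 fell by 2.06 from a Pro mean of 6.37 with an SD of 7.24 FPKM. With hemoglobin genes left out, 7 were called higher and 4 lower.

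Across the 12 libraries, the log2(FPKM + 1) values of the 6 rising genes had Pearson correlations of 0.864 to 0.991 with each other, the highest between Ube2h and Trim58. Points of one stage lie close together in such a comparison, so these values describe the shared course over stages. Rnf123 had correlations of -0.34 to -0.01 with the 6, and Fbxo7 of -0.71 to -0.48. Among 7149 genes with a mean of at least 10 FPKM in any stage, the courses of Fbxo30 (r = 0.996) and Tcp11l2 (0.995) were among those most like that of Ube2h. Those most like Ube2o were Slfn14 (0.997), Rnf10 (0.997) and Adipor1 (0.996), those most like Trim58 were St3gal5 (0.996), Bsdc1 (0.996) and Nt5c3 (0.995), and those most like Trim10 were Ccdc92b (0.999), Cmas (0.997) and Ypel4 (0.995). Ube2l6 was most like Ppp1cb (0.962), Tfdp2 (0.957) and Shisa5 (0.953). Ubb was most like its own copies Gm1821 (0.997) and Gm8797 (0.989), followed by the heme transporter gene Slc48a1 (0.989). Rnf123 was most like Apol8 (0.991), Hace1 (0.982) and Dleu2 (0.982), and Fbxo7 like Acp1 (0.969), Map3k20 (0.964) and Uros (0.947), a gene of heme synthesis. Cul4a had lower values, with Cabin1 (0.828), Atg2a (0.785) and Kdm3a (0.749).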

How the data were processed

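RNA was sequenced in 12 libraries of 4 erythroblast stages, which were grouped and numbered by the sample titles. Per the labels and the study's methods, the authors trimmed reads with cutadapt and Trimmomatic, aligned them to mm10 with HISAT2, used SAMtools and counted fragments per gene with featureCounts. Versions, annotation release and strand setting are not given in the sources used here. The deposited values are FPKM, which the authors calculated per gene and library, and the tool of this step is not given. The methods name a KAPA library kit and the labels a NEBNext Ultra kit. The table held 29839 lines and 29838 genes after removing 1 repeated identifier. Among 233 genes under 0.1 FPKM, ratios between libraries did not fall in steps (6.01% in the fullest bin of width 0.1), so depth is unknown and no counting error is given. The spread over 3 libraries gives the precision.

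Genes with at least 1 FPKM in at least 3 libraries were fitted on the log2 scale, after adding a pseudocount of 1, with limma 3.58.1 (R 4.3.3), a variance trend and all stages in one model. Two-sided p-values were adjusted over 12994 genes, and calls were made as the report defines them. The authors' own differential test was made on counts, which were not used here. The fit was tested on simulated data. The genes and the 18 lists (361 of 380 symbols matched) were chosen with earlier results of these data known. Besides the 9 genes, every gene of 4 short lists was named, the 3 largest calls of each direction in the other pathway lists, the partner of each ratio and the 3 genes of most similar course. Some genes that this rule covers, and the results that need them, are not reported here. Slc4a1, Alas2 and Kit were named as checks of the sort. Gata2, Trim30a and the copies or overlapping genes of Ubb, Ube2h, Fbxo7 and Rnf123 were named after their values were seen. Positions, exons and shared 75-base windows came from GENCODE M21 on mm10 and promoters from RefSeq, read with Python 3.11.15.

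Libraries with the same number deviated together in Baso, Poly and Ortho (correlations of 0.156 to 0.319), but not clearly between these and Pro (0.00524 to 0.0968), so the numbers pair the 3 later stages, on the values alone. Alternatives covered the pseudocount, the filter, 3 scalings, the variance trend, pairwise models, a block of replicate numbers, calls by adjusted p only and leaving out each library.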

Additional observations from a re-analysis of the deposited data

How the results depend on the processing

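Of 1053 log2 fold changes of the 9 genes under alternatives, 1004 kept their direction and side of the threshold, 14 lost and 25 gained a call, and 10 changed sign. With a pseudocount of 5 the 9 genes gave 3 calls in Baso against Pro, and rescaling to the same sum also gave 3. Leaving out single libraries gave 3 to 6 calls in that comparison. With hemoglobin genes left out, 7 were called in Poly against Pro. With the adjusted p as the only criterion, 8 were called in Baso and 8 in Poly against Pro, 1 in Poly against Baso and 8 in Ortho against Poly.

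Over all genes, a pseudocount of 5 gave 598, 1069 and 2088 calls in Baso, Poly and Ortho against Pro, 21 in Poly against Baso and 439 in Ortho against Poly. The adjusted p alone gave 7405, 8586, 9857, 1605 and 3397 in the same order, and a pseudocount of 0.1 gave 122 in Poly against Baso. As reported, the counts were 1347, 2130, 3915, 67 and 762. A larger pseudocount shrinks and a smaller one widens the fold changes of low genes, and dropping the fold limit adds genes by construction. For the other changes the cause was not tested.

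The values that changed sign were small. Ube2o in Poly against Baso was -0.000329 when centred, -0.029 without Baso replicate 3 and -0.02 without Poly replicate 2 (range to 0.15 over single libraries left out), Ubb there was -0.002661 when centred, and Ube2l6 was 0.010 without Baso replicate 1. With hemoglobin genes left out, Cul4a (0.032) and Fbxo7 (0.084) in Poly against Pro and Rnf123 (0.28) in Ortho against Pro changed sign, as did Rnf123 when centred (0.19) and Cul4a in Ortho against Pro at the same sum (-0.11).

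With the replicate number as a block, 5, 4 and 6 of the 9 genes were called in Baso, Poly and Ortho against Pro, 0 in Poly against Baso and 5 in Ortho against Poly. All genes gave 1358, 2146, 3931, 69 and 763 calls, and the block within Baso, Poly and Ortho gave 74 and 769 in the last 2. The pairing changed no call among the 9 genes, though Cul4a in Ortho against Poly, Trim10 in Poly against Baso and Rnf123 in Ortho against Pro then passed the adjusted p, under the fold limit, in at least 1 of the blocked fits. Depth is unknown, and with 3 libraries a stage the Cul4a and Pro Ube2l6 values are the least precise.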
